A study of Rattus norvegicus with 134 samples.

Results

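The miRNA profile of the unheated rat liver was set against that of the unheated rat heart. The comparison used 11 of the 77 small RNA libraries analysed here, 6 of liver and 5 of heart, from control Fischer 344 rats killed at the time that matched Tc,max, the moment at which heated rats reached the target core temperature. The libraries were chosen by their labels for treatment, time and tissue alone, and no measured value entered the choice. Rats 288, 289, 291, 293 and 294 gave both organs and rat 292 gave the liver only. By the labels the control rats were kept at normal housing temperature and never entered the incubator, whereas the methods place them in an incubator at room temperature. The labels give neither age nor sex. The livers and hearts of heat-stressed rats killed at Tc,max, 6 of each, and the kidneys of 5 of these control rats served to place the values.

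Organ and handling could not be separated in this design. Heart was ground in a freezer mill and liver in a bead homogeniser, and the libraries of a tissue were pooled, size-selected and sequenced on a lane of their own, so that organ, homogenisation, pool and lane cannot be told apart. The samples were bulk tissue. Fewer cells of a type and less of an miRNA per cell cannot be told apart in such samples. A value is the log2 of CPM plus 1, where CPM are the reads of a name scaled to a common library size, and it is a share of the library and not an amount per cell. A read covers a whole mature miRNA, so that no correction for length was made. The libraries held 141554 to 302012 reads in liver and 341881 to 578029 in heart, and 3 reads, taken as the floor, lay at 3.45 to 4.47 in liver and 2.63 to 3.29 in heart on the log2 scale. Of the 185 miRNA names in the table, 105 carry an arm (5p or 3p) and 80 lack one. Reads listed under a name that lacks the arm are not the sum of the reads of both arms.

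miRNA are short RNAs cut from hairpin precursors. Each is loaded into an Argonaute protein and guides it to messenger RNAs, whose translation and stability it lowers, and pairing runs mainly through the seed, bases 2 to 8 from the 5′ end. Hairpins that lie close together are often cut from one transcript, and names with the same seed are counted as a family. miR-122 is the classic miRNA of hepatocytes, where it acts on cholesterol metabolism. miR-192 and miR-194 are known from liver, gut and kidney. miR-1, miR-133 and the miR-208 and miR-499 group, which sits in introns of myosin heavy chain genes, are the classic miRNA of striated muscle and heart.

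The mature sequences below carry the organ contrast. RefSeq (GRCr8) held 108 of the 185 names. The seed is in capitals. miR-122-5p, miR-192-5p, miR-194-5p and miR-375-3p were among the highest in liver over heart, and miR-1-3p, the miR-133 pair and miR-499-5p among the lowest. miR-3591 is shown because it lies on the opposite strand of the miR-122 hairpin. miR-101a-3p, miR-101b-3p and the let-7 set are shown because names with one seed differed between the organs in different ways.
miR-122-5p: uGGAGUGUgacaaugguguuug
miR-3591: aACACCAUugucacacucca
miR-192-5p: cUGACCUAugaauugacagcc
miR-194-5p: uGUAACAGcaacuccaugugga
miR-375-3p: uUUGUUCGuucggcucgcguga
miR-1-3p: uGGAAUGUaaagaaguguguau
miR-133a-3p: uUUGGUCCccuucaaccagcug
miR-133b-3p: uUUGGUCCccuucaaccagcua
miR-499-5p: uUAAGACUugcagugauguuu
miR-101a-3p: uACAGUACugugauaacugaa
miR-101b-3p: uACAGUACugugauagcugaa
let-7a-5p: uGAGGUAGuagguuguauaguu
let-7b-5p: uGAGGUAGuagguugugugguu
let-7c-5p: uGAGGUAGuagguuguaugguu
let-7f-5p: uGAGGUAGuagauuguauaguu

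Liver and heart differed in most of the names tested. The deposited values cover fewer names than the miRNA that the paper identified. Some names passed the filter through a single organ and had to differ, which raises the counts that follow. Of 175 names tested with limma against a small minimum change (0.32 on the log2 scale), 124 differed at an FDR under 0.05 (70.9%), of which 57 were higher in liver (32.6%) and 67 lower (38.3%). The median difference over the 175 names was -0.20, and 112 names differed by more than 1 on the log2 scale. Differences over 3 were seen for 26 names that were higher and 22 that were lower in liver, and differences over 6 for 12 and 9. The lowest library of one organ lay above the highest of the other for 121 names (69.1%), 116 of them past the test. A further 10 names did not reach 5 reads in all libraries of either organ and were not tested. Another scaling moves the differences upwards, by a median of 0.17 with RLE (median of ratios) and 0.13 with the trimmed mean. The moves ranged from 0.081 to 0.187 with RLE over the 175 names, and RLE gave 63 higher and 64 lower names with RLE.

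**Figure D1:**
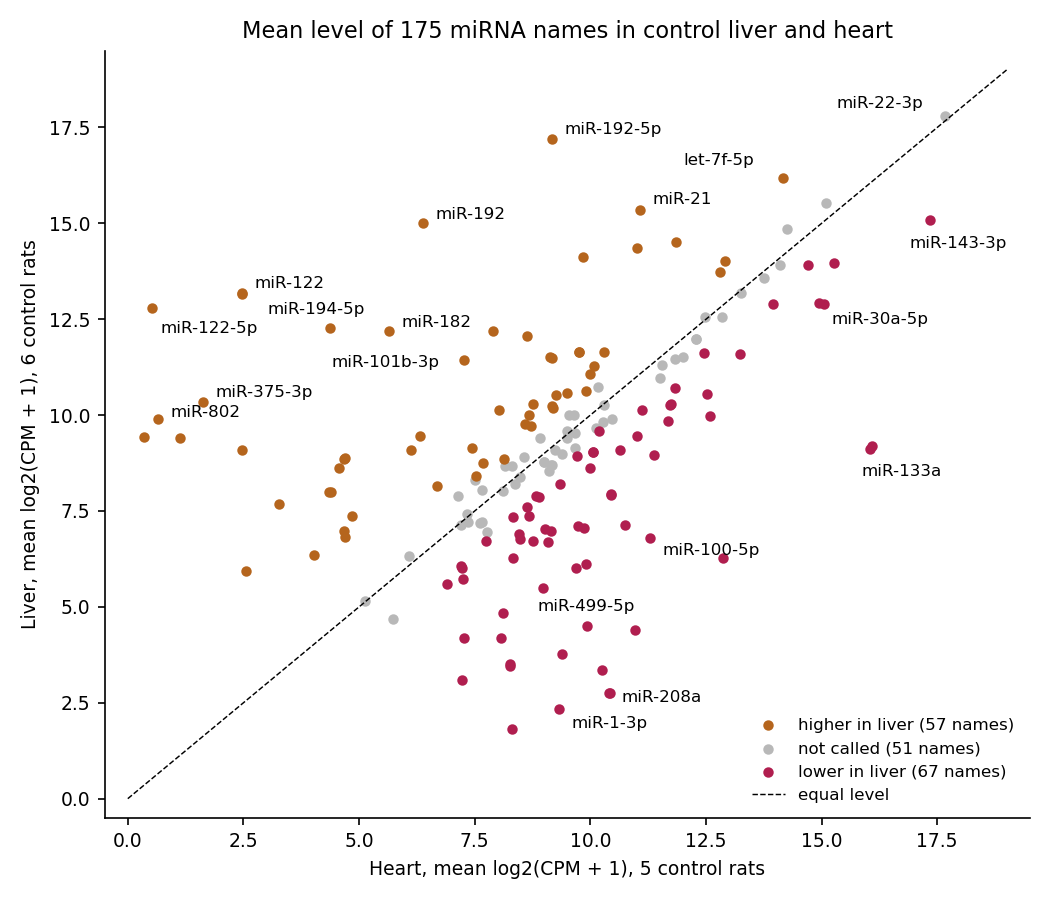
Mean log2(CPM + 1) of 175 miRNA names in liver (vertical axis, 6 control rats) against heart (horizontal axis, 5 control rats), coloured by the limma test at an FDR of 0.05. 57 names lay higher and 67 lower in liver, while miR-22-3p lay at the top of both organs on the line of equal level.

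All 9 measured names of the hepatocyte list were higher in liver, with a median difference of 8.63 beside -0.20 over all names. Several of them, miR-122-5p among them, passed the filter through liver alone and had to differ, so that this count is a description and is not read against the 32.6% of all names. They took 20.1 to 22.7% of the CPM in liver, 7.49 to 9.68% in kidney and 0.049 to 0.102% in heart. miR-122-5p lay between 12.57 and 13.10 in the 6 livers (median 12.79). In the hearts it lay at 2.63 in rat 288, which is 3 reads, and was 0 in rats 289, 291, 293 and 294. Every liver was thus far above every heart. The difference was 12.28 (SE 0.42, adjusted p = 9.91e-13, limma), the largest in the table. With so few heart reads a ratio of the pooled reads serves better: liver over heart it was 5413, with an exact 95% interval from 1852 to 26253 that covers counting error only.

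The opposite arm of the same hairpin, miR-122-3p, lay between 9.27 and 9.59 in liver (median 9.43) and showed a single read among the hearts, in rat 291. Its difference was 9.06 (SE 0.42, adjusted p = 3.61e-11, limma). miR-802, which acts in hepatic glucose metabolism in the mouse, lay between 9.60 and 10.17 in liver (median 9.90) and at 1.45, 0, 0, 1.85 and 0 in the hearts of rats 288, 289, 291, 293 and 294. No heart held more than 1 read of it, and its difference was 9.23 (SE 0.42, adjusted p = 2.83e-11, limma). The arm miR-802-3p differed by 8.27.

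miR-192-5p was the second most abundant name of the liver and was well measured in heart too. It took 14.6 to 16.1% of the CPM in liver and 0.041 to 0.085% in heart. Liver values lay between 17.15 and 17.30 (median 17.19) and those of the hearts at 9.66, 9.73, 8.69, 8.88 and 8.89. The livers lay close to one another and the hearts were spread more widely, with no overlap. The difference was 8.04 (SE 0.18, adjusted p = 9.41e-15, limma), a 264-fold higher level in liver. miR-194-5p lay between 12.10 and 12.52 in liver (median 12.24) and at 4.75, 4.21, 4.20, 4.26 and 4.48 in heart. It differed by 7.88 (SE 0.15, adjusted p = 3.61e-15, limma), the smallest p in the table.

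The hairpins of miR-194 and miR-192 lie next to each other at chr1:212994024-212994318 on the plus strand of GRCr8, and miR-194-5p has a second copy within the span of Iars2 on chromosome 13. The mature miR-194-5p sequence is the same in both, so that the copies cannot be told apart. Names without an arm moved like the arms, with 8.63 for miR-192, 6.61 for miR-194-2 and 10.69 for miR-122. In kidney miR-192-5p lay at 15.92 to 16.32, between liver and heart and much nearer to liver, whereas miR-122-5p lay at 0 to 4.67.

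Among the highest differences were also names outside the hepatocyte list. miR-375-3p, best known from pancreatic islets, lay between 10.0002 and 10.64 in liver (median 10.42) and at 3.89, 4.21, 0, 0 and 0 in heart. All livers lay far above all hearts, and the hearts themselves were split between a few reads and none. The difference was 8.73 (SE 0.76, adjusted p = 7.15e-08, limma). miR-182, of the miR-183 cluster, lay between 11.84 and 12.41 in liver (median 12.32) and at 6.51, 5.66, 5.16, 5.58 and 5.30 in heart, a difference of 6.56 (SE 0.22, adjusted p = 9.91e-13, limma).

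miR-182 led an epithelial list of 12 measured names, which also held the miR-200 family, miR-141 and miR-203. Of these 7 passed the filter and all 7 were higher in liver, while the other 5 lay too low to test. A name on the list passed the filter mostly through the liver, so that this count says little. The list summed to 0.495 to 0.654% of the CPM in liver, 1.31 to 1.82% in kidney and 0.014 to 0.040% in heart. Without miR-182, the members tested differed by 2.11 to 3.63.

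**Figure D2:**
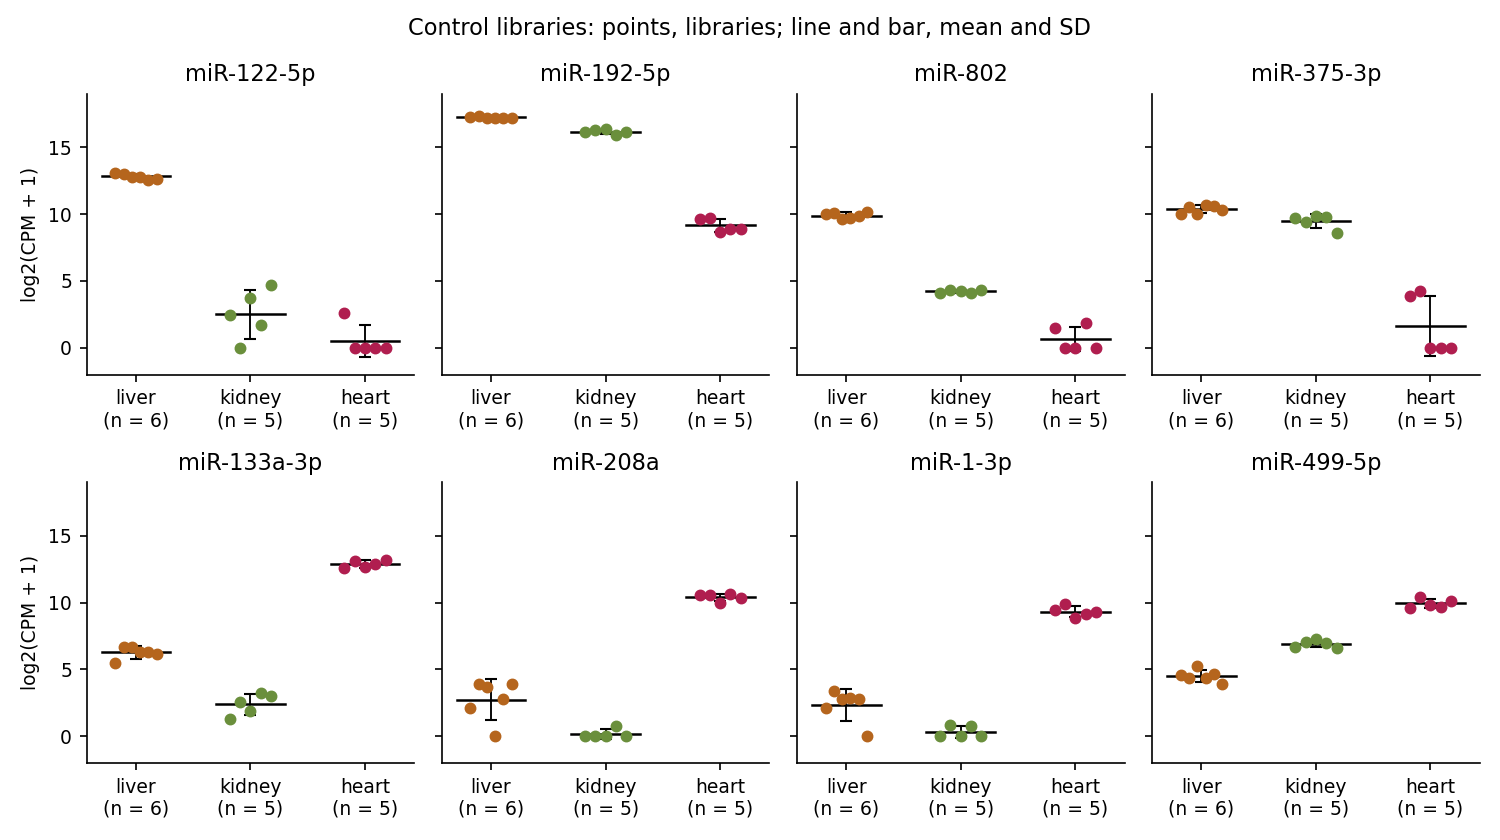
Log2(CPM + 1) of 8 names in each control library of liver (n = 6), kidney (n = 5) and heart (n = 5), with the mean and SD. The upper row shows names that were higher in liver than in heart, with miR-192-5p and miR-375-3p in kidney near the liver level, and the lower row names that were lower in liver, of which miR-133a-3p lay at 5.46 to 6.71 in liver and 1.30 to 3.21 in kidney.

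All 9 names of the striated muscle list were lower in liver, with a median difference of -6.90. Several of them, miR-1-3p and miR-208a among them, passed the filter through heart alone, so that this count too is a description and is not read against the 38.3% of all names. The list took 0.067 to 0.187% of the CPM in liver, 0.016 to 0.023% in kidney and 11.8 to 19.7% in heart. miR-133a, which represses cardiac growth, lay between 8.14 and 9.68 in liver (median 9.25) and at 15.90, 16.43, 15.67, 15.90 and 16.30 in heart. No liver came near the lowest heart. The difference was -6.92 (SE 0.23, adjusted p = 9.91e-13, limma), which is 121-fold. The arm miR-133a-3p differed by -6.61 and miR-133b-3p, which differs from it by G22A (counted from the 5′ end) and is cut from another chromosome, by -6.90.

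miR-1-3p, the partner of miR-133a in one transcript, lay between 0 and 3.40 in liver (median 2.82), which is at most 2 reads, and at 9.41, 9.91, 8.82, 9.14 and 9.32 in heart. Its difference was -6.98 (SE 0.55, adjusted p = 2.65e-08, limma). The pair of hairpins lies at chr18:2157872-2160413 on the minus strand, within the span of Mib1. In heart miR-1-3p took 0.045 to 0.096% of the CPM and miR-133a 5.20 to 8.84%. These shares are not alike, since miR-133a lacks an arm and no such name was listed for miR-1. Between the arms, miR-133a-3p averaged 12.9 in heart and miR-1-3p 9.32.

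The names hosted by myosin heavy chain genes were low in liver throughout. miR-208a, within the span of Myh6 (alpha myosin heavy chain), lay between 0 and 3.93 in liver (median 3.27) and at 10.56, 10.56, 9.98, 10.60 and 10.34 in heart, a difference of -7.66 (SE 0.61, adjusted p = 2.65e-08, limma). miR-208b, within Myh7 (beta myosin heavy chain), lay between 2.11 and 5.45 in liver (median 4.77) and at 11.25, 11.74, 10.55, 9.93 and 11.33 in heart, a difference of -6.55. The hearts thus spread more in miR-208b (SD 0.716) than in miR-208a (SD 0.261). miR-499-5p, within Myh7b, lay between 3.92 and 5.23 in liver (median 4.47) and at 9.61, 10.41, 9.83, 9.64 and 10.14 in heart, a difference of -5.42 (SE 0.27, adjusted p = 1.09e-10, limma). In kidney it lay at 6.64 to 7.27, above every liver, which was also so for miR-499 but not for the miR-133, miR-1 and miR-208 names.

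Some muscle miRNA was read in every liver. The livers held 76 to 134 reads of miR-133a, 0.409 to 1.19% of the mean heart level, where the kidneys of the same rats held 0.013 to 0.040%. Of the pooled liver and heart levels, scaled to depth, miR-133a-3p in liver came to 1.01% of heart (exact 95% interval 0.806 to 1.246%), miR-1-3p to 0.809% (0.296 to 1.77%) and miR-208a to 0.575% (0.262 to 1.09%). miR-499-5p came to 2.34% (1.53 to 3.45%), an interval above those of miR-133a-3p and miR-208a. The intervals cover counting error only, and single livers ranged from 0.566 to 1.36% for miR-133a-3p and from 1.42 to 3.67% for miR-499-5p. The ratio of miR-133a to miR-133a-3p reads was 5.90 to 10 in the livers and 7.96 to 10.2 in the hearts. The source of these reads in liver was not tested.

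miR-490 and the miR-219 names were also among the lowest in liver. miR-490, within the span of the muscarinic receptor gene Chrm2, lay between 2.53 and 5.06 in liver (median 3.71) and at 10.16, 9.17, 8.69, 9.58 and 9.29 in heart. It differed by -5.61 (SE 0.45, adjusted p = 3.18e-08, limma) with no overlap, and in kidney lay at 0 to 2.0. miR-219a-2 lay between 0 and 4.98 in liver (median 4.09) and at 7.01, 7.88, 8.49, 9.99 and 7.92 in heart, a difference of -4.79 (SE 0.81, adjusted p = 9.54e-05, limma).

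The most abundant name was the same in both organs. miR-22-3p, an miRNA known from cardiac growth, lay between 17.64 and 17.93 in liver (median 17.79) and at 17.80, 18.09, 17.18, 17.38 and 17.85 in heart. The heart values enclosed those of the liver. The difference was 0.12 (95% interval -0.26 to 0.51, adjusted p = 0.93, limma), and it took 20.4 to 25.0% of the CPM in liver and 14.9 to 27.98% in heart. Below it the organs parted. In liver miR-192-5p, let-7f-5p, miR-26a-5p and miR-21 followed, and in heart miR-143-3p, miR-133c, miR-133a and miR-30a.

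miR-21, known for its rise in injured and fibrotic tissue, lay between 15.18 and 15.54 in liver (median 15.29) and at 11.10, 11.01, 10.83, 11.24 and 11.23 in heart. The difference was 4.25 (SE 0.11, adjusted p = 1.05e-13, limma), a 19.1-fold higher level in liver under this name, which lacks an arm. For miR-21-5p the difference was smaller, at 2.65, with a mean of 14.51 in liver and 11.86 in heart. The 3p arm differed by 2.52, and both were called higher in liver. miR-143-3p, a smooth muscle miRNA, lay between 14.58 and 15.29 in liver (median 15.15) and at 17.16, 16.79, 18.21, 17.81 and 16.75 in heart. The difference was -2.27 (SE 0.25, adjusted p = 2.83e-06, limma). It was the top name in the hearts of rats 291 and 293, with 30.3 and 22.9% of the CPM, and miR-22-3p in all other libraries of both organs.

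The concentration of the libraries in a few names did not differ past the adjusted test. The top name took 22.7 ± 1.62% of the CPM in liver and 25.5 ± 3.41% in heart (SD, n = 6 and 5, exact two-sided permutation p = 0.13, adjusted 0.19 over 3 measures). The top 5 names took 54.5 ± 0.956% in liver and 57.7 ± 3.22% in heart (exact permutation p = 0.039, adjusted 0.12). The number of names with at least 5 reads was 167.8 ± 5.12 in liver and 168.4 ± 4.83 in heart (exact permutation p = 0.95), although the livers held fewer reads. The smallest p this design allows is 0.0043.

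**Figure D3:**
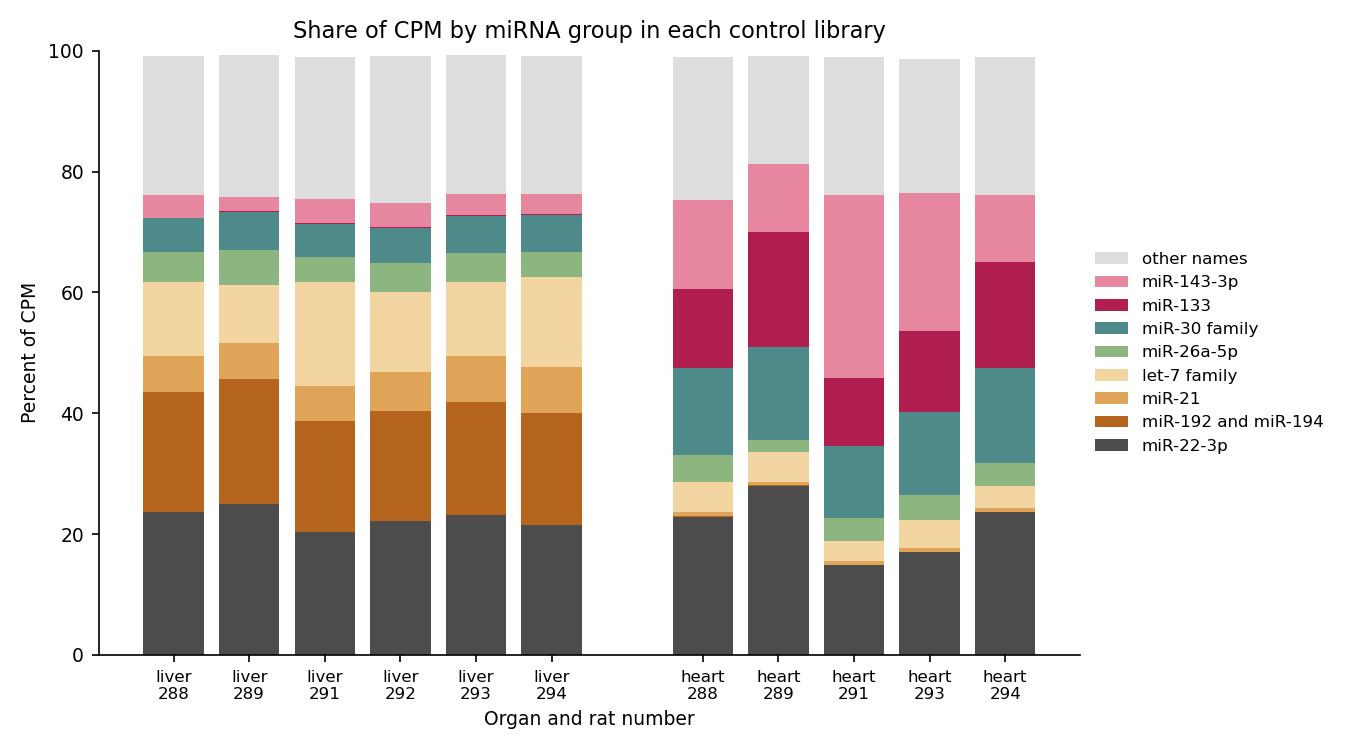
Share of CPM taken by groups of miRNA names in each control library of liver (6 rats) and heart (5 rats). miR-192 and miR-194, the let-7 family and miR-21 filled more of each liver library, and miR-133, miR-143-3p and the miR-30 family more of each heart library, with names that may share reads added up as listed.

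Lists for the other cell types of the organs gave smaller differences. The endothelial names, of miR-126 in the gene Egfl7, were lower in liver for 3 of 4, beside 38.3% of all names (median -1.01), with 1.06 to 1.30% of the CPM in liver and 1.24 to 2.18% in heart. Of the 3, miR-126a and miR-126b agreed within 0.032 in every library and may share reads. miR-126a-3p differed by -1.12 (SE 0.16), whereas miR-126a-5p, the highest of the list, gave -0.07 (95% interval -0.62 to 0.48) and was not called. All 4 smooth muscle names were lower in liver, beside the same 38.3% (median -2.46), from miR-145-5p at -3.79 to miR-143-3p, and summed to 2.49 to 4.05% of the CPM in liver and 11.2 to 30.9% in heart. Both hairpins lie at chr18:57369983-57371453 on the minus strand, within the span of Carmn.

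Both stromal names, of miR-199a, were lower in liver (median -1.63), beside 38.3% of all names. Of 8 blood and immune names, 3 were higher and 1 lower in liver and 4 were not called, beside 32.6% higher and 38.3% lower over all names. miR-142-5p, of blood cells, differed by 1.18 and miR-146b-5p by -1.98, while the red cell miRNA miR-451 lay at 4.33 to 5.45 in liver and 3.97 to 7.22 in heart and was not called. The one measured neural name, miR-9a-5p, differed by -4.14, and lay at 6.69 to 7.88 in heart and 7.92 to 8.67 in kidney. The blood and immune names summed to 0.255 to 0.411% of the CPM in liver and 0.215 to 0.359% in heart, and these ranges overlap, as do those of the endothelial names. The part of these cell types in the other differences was not tested.

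**Figure D4:**
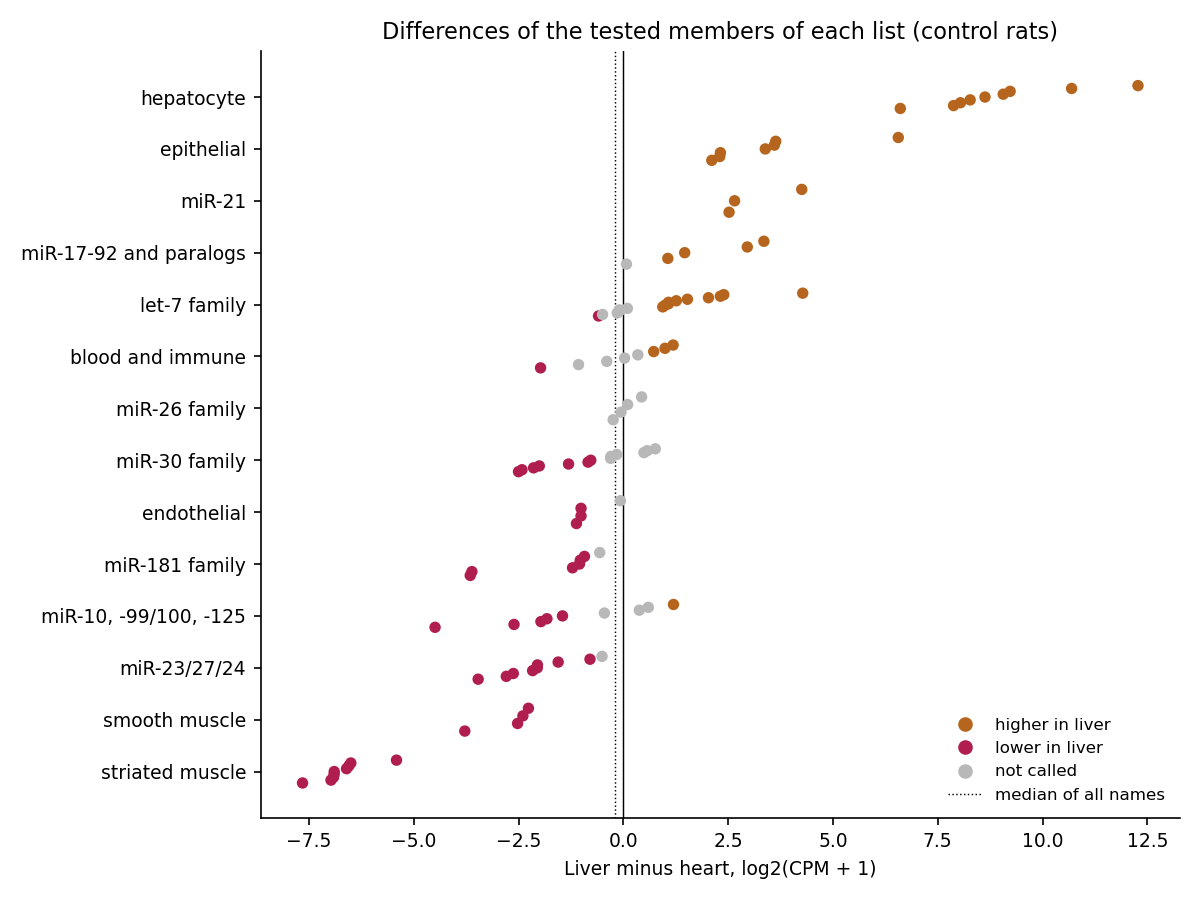
Liver minus heart difference in log2(CPM + 1) of the tested names of 14 marker and family lists, coloured by the limma test, with a dotted line at the median of all 175 names (-0.20). The hepatocyte names lay between 6.61 and 12.28, and the striated muscle names between -7.66 and -5.42.

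Of 16 let-7 names, 10 were higher in liver, 1 was lower and 5 were not called (median 1.03), beside 32.6% higher over all names. The let-7 family holds back proliferation and is high in differentiated tissue. It summed to 9.51 to 17.2% of the CPM in liver and 3.34 to 5.07% in heart. let-7f-5p lay between 15.58 and 16.68 in liver (median 16.20) and at 14.39, 14.44, 13.77, 14.18 and 14.06 in heart, a difference of 2.03 (SE 0.19, adjusted p = 4.55e-07, limma). let-7f-2, a name without an arm, differed by 4.28, the most of the family. It names the copy on chromosome X, whereas let-7f-5p has another copy on chromosome 17.

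Members with one seed were not alike. Over 8 mature names with the seed GAGGUAG, the differences ran from -0.59 for let-7b-5p, the member called lower, to 2.03. let-7a-5p (0.94), let-7d-5p (1.07) and let-7e-5p (1.26) were called higher in liver like let-7f-5p. Counted from the 5′ end, let-7f-5p differs from let-7a-5p by G12A, let-7c-5p by A19G and let-7b-5p by A17G and A19G, and let-7c-5p gave 0.09 and was not called. The call of let-7b-5p was lost with RLE scaling (adjusted p = 0.318, limma) and with the rat as a block (adjusted p = 0.0725, limma).

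A wider split under one seed was seen for miR-101, chosen after its values were seen. miR-101b-3p, cut from a hairpin within the span of Rcl1, lay between 11.35 and 11.51 in liver (median 11.41) and at 7.23, 7.26, 7.20, 7.39 and 7.31 in heart. It differed by 4.15 (SE 0.11, adjusted p = 8e-14, limma), a 17.7-fold higher level in liver. miR-101a-3p, from which it differs in 1 base (A16G), comes from another chromosome. It lay between 9.64 and 9.95 in liver (median 9.83) and at 10.10, 10.30, 10.34, 10.44 and 10.16 in heart, a difference of -0.46 (adjusted p = 0.17, limma). miR-101b-3p was thus the higher of the pair in every liver and the lower in every heart.

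Smaller splits of the same kind were found in other families, likewise picked after their values were seen. miR-146a-5p and miR-146b-5p share the seed GAGAACU and gave 0.34, which was not called, and -1.98. The miR-181 names with the seed ACAUUCA ranged from -3.62 for miR-181c-5p to -0.57 for miR-181b-5p, and 6 of the 7 names of the family were lower in liver, beside 38.3% of all names. miR-30a-5p, miR-30c-5p and miR-30e-5p, with the seed GUAAACA, were lower in liver together, with differences of -2.50 to -2.01. The miR-30 family as a whole was not uniform, as miR-30d-5p gave -0.84 and miR-30b-5p 0.56, which was not called.

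The miR-30 family is abundant in heart, where it is known to restrain connective tissue growth factor. Of 13 names 7 were lower in liver (beside 38.3% of all names), 0 were higher and 6 were not called (median -0.78), and the family summed to 5.47 to 6.20% of the CPM in liver and 11.8 to 15.8% in heart. miR-30a, the highest of the list, lay between 13.90 and 14.06 in liver (median 13.93) and at 15.16, 15.61, 14.90, 15.24 and 15.43 in heart, a difference of -1.31 (SE 0.13, adjusted p = 2.85e-06, limma).

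Of the miR-23/27/24 names 8 of 9 were lower in liver, beside 38.3% of all names (median -2.06), led by miR-23a at -3.47, with miR-27b-3p as the highest of the list at -0.80. Of the miR-10, miR-99/100 and miR-125 names, 5 of 9 were lower and 1 higher, beside 38.3% and 32.6% of all names. miR-100-5p stood out with 6.52 to 7.10 in liver (median 6.74) against 11.43, 10.98, 11.39, 11.56 and 11.05 in heart, a difference of -4.50 (SE 0.17, adjusted p = 3.08e-12, limma). miR-10a-5p, the highest of that list, gave 0.59 and was not called.

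Of the miR-17-92 and paralogous clusters, which drive cell growth, 7 names were measured, 5 were tested and 4 were higher in liver, beside 32.6% of all names. miR-92a-1 lay between 14.09 and 14.54 in liver (median 14.39) and at 10.78, 11.08, 10.76, 11.10 and 11.31 in heart, a difference of 3.35 (SE 0.13, adjusted p = 6.33e-12, limma). None of the 4 miR-26 names and neither miR-103-3p nor miR-107-3p was called, with differences from -0.25 to 0.43. miR-378a-3p, from the gene of a mitochondrial coactivator (Ppargc1b), differed by -1.64.

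Neighbouring hairpins did not all differ alike. Some mature names have hairpins that lie within 10 kb of each other in GRCr8. Among these, miR-192 with miR-194, miR-133a with miR-1, and miR-143 with miR-145 differed in one direction. At chr10:55450171-55450581, miR-497-5p differed by 0.89 and miR-195-5p, whose groups overlap, by -1.03. At chr1:67350064-67350759, within Spaca6, let-7e-5p differed by 1.26, and its neighbours miR-99b-5p by -1.83 and miR-125a-5p by -1.97. With the rat as a block, limma gave adjusted p = 0.0691 for miR-497-5p, so that its call was lost, and with RLE scaling it gave 0.0511 for miR-195-5p. On chromosome 8, within the span of Lnc215, miR-100-5p differed by -4.50 and let-7a-5p, which has another copy on chromosome 17, by 0.94. All these sites were picked after their values were seen.

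Several names are not independent of each other. In 9 pairs of names the values agreed within 0.1 in all 11 libraries, among them miR-3546 with miR-208a, miR-3591 with miR-122 and let-7a-1 with let-7a-2, and such names may share reads. Mature sequences of 12 pairs of names overlap by at least 15 bases on opposite strands. miR-3591 lies at chr18:61028831-61028850 on the minus strand and miR-122-5p at chr18:61028831-61028852 on the plus strand, and they gave 10.73 and 12.28. miR-133c lies opposite miR-133a-3p and gave -6.90 beside -6.61, and beside -6.92 for miR-133a. The source of reads under these names, sense or antisense, cannot be told from the table.

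Both arms of a hairpin gave another comparison, of the 5p minus the 3p level within each library, for which the total reads of the library cancel. Of 10 hairpins with both arms past the filter, 4 differed between liver and heart (40%), 2 in each direction (20% each). miR-30a-5p exceeded miR-30a-3p by 3.22 to 3.88 in liver and by 6.06, 6.36, 5.96, 6.08 and 5.67 in heart. The balance differed by -2.50 (SE 0.18, adjusted p = 1.57e-07, limma), since miR-30a-3p itself gave 0.49 and was not called. The balance of miR-30e differed by -1.64 (SE 0.21), again with no overlap. The names without an arm do not enter these balances and were higher than the arms here. miR-30e averaged 12.90 in liver and 15.04 in heart, beside 8.96 and 11.38 for miR-30e-5p. miR-30a averaged 13.96 in liver and 15.27 in heart, beside 12.93 and 14.94 for miR-30a-5p.

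miR-423 went the other way. miR-423-5p lay between 11.93 and 12.30 in liver (median 12.26) and at 7.99, 8.09, 7.45, 7.78 and 8.20 in heart, and its excess over miR-423-3p was 1.84 to 2.34 in liver and -0.29 to 0.20 in heart. The balance was 2.19 higher in liver (SE 0.15, adjusted p = 1.57e-07, limma). The balance of miR-122 was 3.21 higher in liver, and rests on 3 and 1 reads of its arms in all hearts together. All 4 balances had the same sign in heat-stressed rats, and 3 did not overlap there.

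Names without an arm were compared with their higher arm in the same way, an analysis chosen after the data were seen. Of 51 pairs, 20 differed between the organs (39.2%), 17 higher in liver (33.3%) and 3 lower (5.88%). With the rat as a block, 16 higher and 1 lower call held. let-7f-2 lay 1.77 to 2.23 below let-7f-5p in liver and 4.12 to 4.56 below it in heart, a shift of 2.25 (SE 0.11, adjusted p = 4.64e-08, limma). Copy numbers were ignored in the pairing, and let-7f-5p is cut from another copy too. miR-21 lay above miR-21-5p by 0.64 to 0.98 in liver and below it by 0.59 to 1.02 in heart, a shift of 1.60 (SE 0.11). For miR-191a the name without an arm was higher in liver by 1.88, while miR-191a-5p gave -0.30 and was not called. The choice of name thus decides whether this miRNA differs. miR-101b was one of the 3 that went the other way, with -0.72, but with the rat as a block limma gave adjusted p = 0.0509 and its call was lost, as was that of miR-122 (0.0925).

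**Figure D5:**
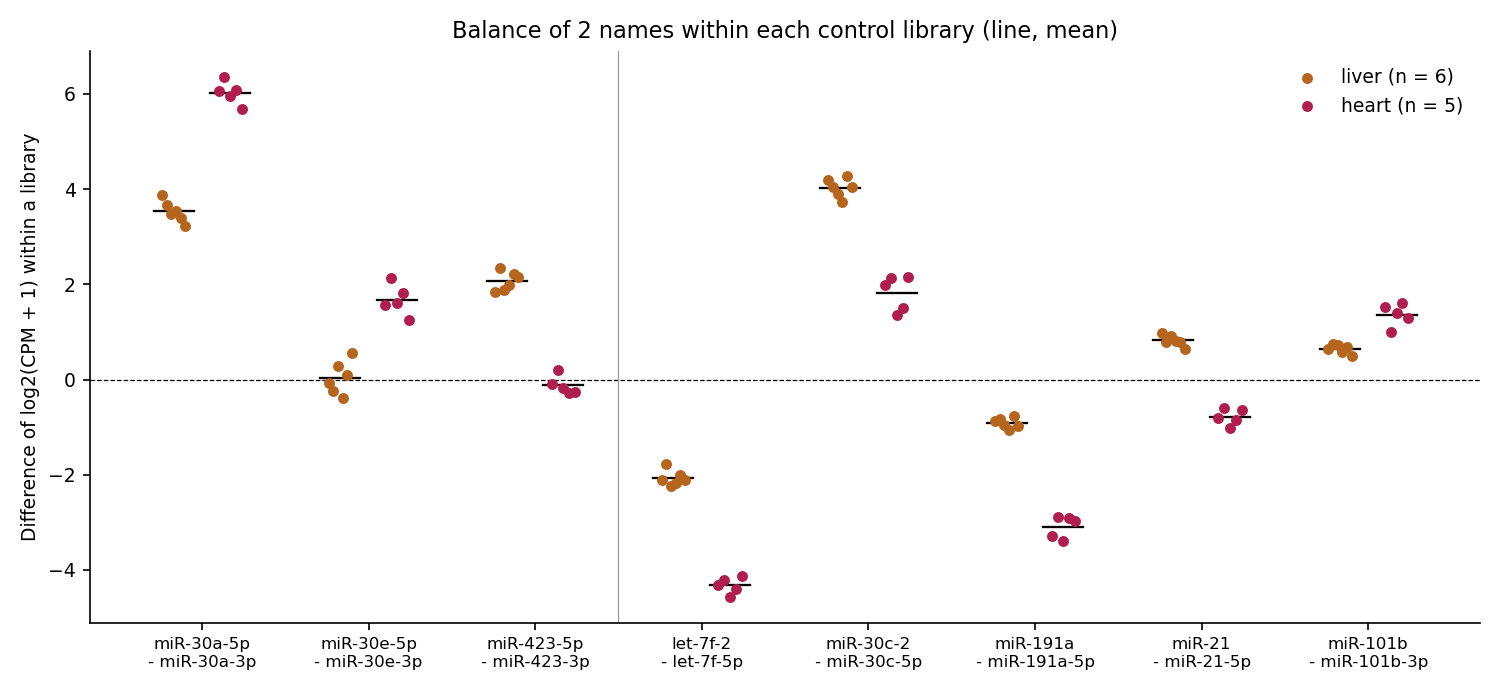
Difference of log2(CPM + 1) between 2 names within each control library of liver (n = 6) and heart (n = 5), with the mean, for 5p minus 3p arms left of the grey line and names without an arm minus their higher arm right of it. The 8 balances shown were picked from those past the test and without overlap between the organs. These were 4 of 10 hairpins and 17 of 51 pairs of a name without an arm and its higher arm.

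The same organ contrast was measured in heat-stressed rats, in 6 livers and 6 hearts that share no library with the controls. There 118 of 177 names differed (66.7%), 60 higher (33.9%) and 58 lower (32.8%) in liver. Of 174 names tested in both, 113 were called in both, which is 91.1% of the calls in controls and 98.3% of those in heat-stressed rats, and all 113 had the same sign. Across these names the differences correlated with r = 0.9905 and rho = 0.988, as a description over names that are not independent. miR-122-5p differed by 11.68 and miR-133a by -7.06 in heat-stressed rats.

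Whether heat changed the organ contrast was tested with limma as an interaction, which called 0 of 178 names (0%) with a lowest adjusted p of 0.998. Before adjustment 4 names were under 0.05, and under every alternative run 0 names were called. The median size of the interaction was 0.25. For miR-205, one of the 4, the means were 6.26 in heat-stressed livers and 2.29 in heat-stressed hearts, and 3.51 in control livers and 3.00 in control hearts. Both control means lay within the range of the 3-read floor. This name also varied widely between rats, from 3.42 to 10.30 in the control kidneys.

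Hearts varied more between rats than livers. Over 92 names with a mean of at least 8 in both organs, the SD was the larger in heart for 72, with a median of 0.194 in liver and 0.339 in heart. This is a description, as names of a library are not independent. miR-31a-5p, chosen after its values were seen, lay between 9.36 and 9.66 in liver and at 7.38, 3.67, 8.09, 7.81 and 4.61 in heart, and the difference of 3.13 (SE 0.67) therefore averages over hearts that lie far apart. Hearts 289 and 294, its lowest, were also the lowest for miR-143-3p.

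Not all abundant names differed past the test. Of 37 names with a mean of at least 10 in both organs, 21 were called (56.8%, beside 70.9% of all names) and 16 were not. The 5 smallest differences were those of miR-151-3p (-0.04, 95% interval -0.32 to 0.25), miR-126a-5p, let-7c-5p (0.09, -0.23 to 0.41), miR-22-3p and miR-30d (-0.16, -0.41 to 0.09). The sign of miR-151-3p, miR-126a-5p and miR-30d turned with the scaling. Of these, miR-126a-5p had the widest interval.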

How the data were processed

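The authors trimmed the reads with cutadapt 2.6, removed low-complexity reads with Prinseq 0.20.4, collapsed them with the FASTX toolkit 0.0.13 and mapped them to rat miRBase release 19 under perfect match. The deposited values are log2(CPM + 1) for 185 names, and a genome build or strand rule is not given in the sources used here. In the 11 libraries all 366 low values were whole multiples of 1 read within 0.05, so reads were recovered for the filter, depth and 1 alternative. The number of other value columns left unused is 0. The table's own label columns were not used for groups.

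limma 3.58.1 in R 4.3.3 (treat against a minimum change of 0.32 on the log2 scale, trend in the spread, Benjamini-Hochberg under 0.05) was run on the names that reached 5 reads in each library of at least 1 organ. Python 3.11.15, numpy 2.4.6, pandas 2.3.3, scipy 1.17.1 and matplotlib 3.10.9 did the rest. The tests were checked on simulated data. Named miRNA were the 12 largest differences each way past the test without overlap, all hepatocyte and striated muscle names, the 5 highest of each organ, the 5 smallest differences at a mean of at least 10, and up to 6 arm balances, and of other lists the extremes and the highest member. Members and lists were chosen with earlier results of these data known. Names outside the rule were chosen after their values were seen. Nothing says that libraries of a group were prepared separately beyond the rat. The 25 pairs of replicate libraries differed beyond counting noise (lowest chi-square 5.88 times its degrees of freedom).

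The rat number pairs liver and heart, as 5 rats gave both. Over these 5 pairs the deviations from the group means correlated by -0.34 to 0.11 (median -0.02). Alternatives were RLE and trimmed-mean scaling, other filters, log2(CPM + 5), no cutoff and a cutoff of 2, all libraries in the fit, the rat as a block, mature arms alone, voom, and leaving out each library.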

Additional observations from a re-analysis of the deposited data

Results flagged for a closer look

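In 6 of 74 sets of libraries tested, 1 library lay far from the others, where chance flags about 1 in 20. miR-122-5p was at 2.63 in the heart of rat 288 and at 0 in the other hearts. miR-122-3p was at 1.80 in the heart of rat 291 and at 0 in the others. miR-122 and miR-3591 were both at 0 in the heart of rat 291 and at 2.78 to 3.51 in the others, values of a few reads. miR-26a-5p was at 14.30 in the heart of rat 289 and at 15.22 to 15.43 in the others. miR-143-3p was at 14.58 in the liver of rat 289 and at 15.04 to 15.29 in the others. The liver minus heart difference of each name called kept its call without that library.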

How the results depend on the processing

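The count of 124 names that differed between liver and heart stayed between 88 and 144 under all alternatives run on all names: 127 with RLE scaling, 128 with the trimmed mean, 130 without a filter, 109 with a mean of at least 6, 123 with log2(CPM + 5), 144 without a fold-change cutoff, 88 with a cutoff of 2, 113 with all libraries in the fit and 121 with voom. With mature arms alone, where fewer names are tested, it was 69. With the rat as a replicate block it was 122, of which 120 were shared with the fit without the block, and no called name changed sign, while 4 calls were lost, let-7b-5p and miR-497-5p among them. Leaving out each library gave 120 to 127 in controls, 111 to 120 in heat-stressed rats, 4 to 5 arm balances and 17 to 20 balances of names without an arm. The last count, 20, was 17 with the rat as a block (1 lower call in place of 3), 34 without a cutoff and 6 with a cutoff of 2. Of 793 values of 38 named results, 781 kept direction and side of the threshold. miR-26a-5p (0.43) passed without a cutoff. Signs turned only for small differences: miR-151-3p to 0.13 (RLE), 0.10 (trimmed mean), and -0.11 to 0.050 without a library, miR-126a-5p to 0.10 (RLE), 0.058 (trimmed mean), and -0.38 to 0.079 without a library, let-7c-5p (-0.026 to 0.17 without a library), and miR-30d to 0.0062 (RLE). The difference in names with at least 5 reads, -0.57, ranged from -2.17 to 0.83 without a library, and was 0 without liver 293. Depth limits names under about 5 reads, and the cause of these changes was not tested.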
